A study of Mus musculus with 22 samples.

Results

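A total of 259 regions carried hnRNP A1 footprints in naïve, mild EAE and severe EAE mice alike, out of 82220 regions with a footprint in any mouse (0.315%). Footprints of the 10 anti-hnRNP A1 immunoprecipitations were joined wherever they overlapped or touched, and a region was kept when at least 2 of 3 naïve, 2 of 3 mild EAE and 2 of 4 severe EAE mice had a footprint in it. Membership was therefore set by the footprints themselves, and the number of mice per region is given as a description with no test. Sequence, gene annotation and footprint length were not used to choose the regions.

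hnRNP A1 is a nuclear RNA-binding protein that takes part in splicing, export, stability and translation of RNA. Its RNA recognition motifs are known to favour UAG, and it is best known for binding in introns and at exonic silencers, where it represses splice site choice. In CLIPseq the protein is crosslinked to RNA by UV light and immunoprecipitated, the RNA is trimmed, and the fragments that stay attached are sequenced. Experimental autoimmune encephalomyelitis (EAE) is a model of multiple sclerosis in which immunization against myelin leads to inflammation and axon damage in the spinal cord.

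All 10 mice were female, wild-type C57Bl/6 animals from which the spinal cord was taken. The 7 EAE mice had received the MOG(35-55) peptide in complete Freund's adjuvant together with pertussis toxin and were killed 15 days after clinical onset, and the 3 naïve mice were age-matched. The age at immunization is 12 weeks in the treatment protocol but 8 weeks in the series design text. Mild EAE was a clinical score of 1.5 (mice EAE_3 and EAE_4) or 1.0 (EAE_7), and severe EAE a score of 2.5 (EAE_1 and EAE_5) or 3.0 (EAE_2 and EAE_6). Whole spinal cord was used, so that fewer cells of a type and less bound RNA per cell cannot be told apart.

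The 37 kept regions in introns are described first, because most of the stretches that could be scored there were crowded with UAG. The stretch covered in the largest number of mice was taken for each region, and 7 of the longest intronic ones that were covered in 8 mice are shown to let the repeated motif be seen. They are written 5′ to 3′ on the strand of the gene, from GRCm38, with each TAG (UAG in the RNA) in capitals.
Celf2, chr2:6827176-6827310, minus strand: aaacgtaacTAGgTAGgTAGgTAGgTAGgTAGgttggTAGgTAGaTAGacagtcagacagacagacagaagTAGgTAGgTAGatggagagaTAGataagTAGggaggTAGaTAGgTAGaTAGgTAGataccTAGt
Akap6, chr12:52945081-52945214, plus strand: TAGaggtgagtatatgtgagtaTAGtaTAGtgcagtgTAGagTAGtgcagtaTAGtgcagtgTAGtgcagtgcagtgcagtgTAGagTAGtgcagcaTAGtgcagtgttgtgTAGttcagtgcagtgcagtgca
Cdk14, chr5:4875448-4875576, minus strand: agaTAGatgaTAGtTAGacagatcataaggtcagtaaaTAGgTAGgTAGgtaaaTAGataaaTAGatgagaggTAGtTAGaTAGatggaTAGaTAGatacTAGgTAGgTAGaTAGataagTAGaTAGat
Dscam, chr16:97087729-97087848, minus strand: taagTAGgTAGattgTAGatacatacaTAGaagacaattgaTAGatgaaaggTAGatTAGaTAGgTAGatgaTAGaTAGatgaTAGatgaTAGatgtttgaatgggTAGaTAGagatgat
Arid5b, chr10:68207389-68207496, minus strand: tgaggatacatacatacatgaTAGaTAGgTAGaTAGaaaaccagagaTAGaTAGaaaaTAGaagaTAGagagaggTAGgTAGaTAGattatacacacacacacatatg
Nuak1, chr10:84377322-84377422, minus strand: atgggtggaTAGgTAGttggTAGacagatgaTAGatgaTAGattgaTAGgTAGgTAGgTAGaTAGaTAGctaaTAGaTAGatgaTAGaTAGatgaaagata
Pam, chr1:97853810-97853907, minus strand: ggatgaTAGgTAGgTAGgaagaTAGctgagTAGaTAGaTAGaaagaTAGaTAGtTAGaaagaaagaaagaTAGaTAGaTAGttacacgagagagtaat
Every one of these 7 stretches held at least 11 UAG, from 11 in 134 nt in Akap6 to 20 in 135 nt in Celf2. Celf2 codes for an RNA-binding regulator of splicing, Dscam for a neuronal adhesion molecule, and Akap6 for an anchor of protein kinase A. Cdk14 and Nuak1 code for protein kinases, Arid5b for a DNA-binding protein and Pam for the enzyme that amidates neuropeptides. Repeat masking covered 32.1% of the Akap6 stretch and 96.3% of the Arid5b stretch, and the other 5 lay between these values. In Celf2, Cdk14 and Pam most of the UAG stood in runs of TAGG or TAGA units.

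UAG-rich stretches were also found where 24.5% or less of the bases were repeat-masked. The Scyl3, Camta1 and Odf2l stretches, covered in 7 mice, are shown for this, with 0%, 24.5% and 0% of their bases masked, followed by the 2 stretches covered in 7 mice and over 100 nt long that were poor in UAG.
Scyl3, chr1:163942994-163943176, plus strand: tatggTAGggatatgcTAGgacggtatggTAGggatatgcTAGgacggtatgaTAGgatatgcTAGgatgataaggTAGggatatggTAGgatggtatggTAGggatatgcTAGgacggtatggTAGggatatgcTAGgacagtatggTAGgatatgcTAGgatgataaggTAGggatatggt
Camta1, chr4:151313623-151313773, minus strand: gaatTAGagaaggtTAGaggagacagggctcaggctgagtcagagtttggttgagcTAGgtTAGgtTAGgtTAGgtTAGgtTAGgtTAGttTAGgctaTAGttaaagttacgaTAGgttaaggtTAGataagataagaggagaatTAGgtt
Odf2l, chr3:145132855-145133000, plus strand: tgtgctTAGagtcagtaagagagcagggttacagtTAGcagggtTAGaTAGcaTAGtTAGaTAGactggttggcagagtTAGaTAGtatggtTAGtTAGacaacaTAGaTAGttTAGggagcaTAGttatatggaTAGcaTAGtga
Ank3, chr10:69846820-69846969, plus strand: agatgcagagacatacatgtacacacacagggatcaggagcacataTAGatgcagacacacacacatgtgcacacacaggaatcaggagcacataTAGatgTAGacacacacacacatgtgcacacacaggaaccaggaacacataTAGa
Wdr17, chr8:54812624-54812748, minus strand: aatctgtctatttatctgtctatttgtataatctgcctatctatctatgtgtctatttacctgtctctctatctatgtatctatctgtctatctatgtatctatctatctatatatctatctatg
The Scyl3 stretch held 15 UAG in 183 nt, the Camta1 stretch 14 in 151 nt and the Odf2l stretch 17 in 146 nt. In Scyl3 the UAG stood in a unit that recurred along the stretch, although 0% of it was masked. In Camta1, which codes for a calmodulin-binding transcription activator, the UAG ran in units of TAGGT, and the stretch held 10 AGGU as well. Ank3, which codes for the ankyrin of the axon initial segment, held 4 UAG in 150 nt. Wdr17 held none on the gene strand but 16 on the opposite strand, and the footprints carry no strand.

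A stretch was called UAG-dense at 5 or more UAG per 100 nt on the gene strand, counted in stretches of 50 nt or more that lay in a single gene. By this measure 18 of 26 intronic kept regions were UAG-dense (69.2%), with 8.2 to 15.0 UAG per 100 nt and a median of 11.7. Over all union regions, 1168 of 20919 intronic stretches were UAG-dense (5.58%). Of the 18, 8 were under 50% repeat-masked and 3 (Odf2l, Cacna1a and Scyl3) under 10%. In coding sequence, 0 of 78 kept regions reached this density, against 0.0835% of 25151 coding stretches in the whole series. A count of 0 in 78 is near that share and does not set the coding kept regions apart. The median was 0 UAG per 100 nt in coding stretches, both kept and over the whole series. The median density was 9.11 UAG per 100 nt in the intronic kept regions, against 1.41 in all intronic regions.

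The same count was made in regions that fell short in one group. Among intronic regions shared by naïve and mild EAE mice but found in fewer than 2 severe EAE mice, 136 of 322 were UAG-dense (42.2%). Among those shared by mild and severe EAE mice with fewer than 2 naïve mice, 2 of 18 were (11.1%), and among those shared by naïve and severe EAE mice with fewer than 2 mild EAE mice, 3 of 14 (21.4%). These shares are descriptions and were not tested against each other.

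Across the whole series the share of UAG-dense intronic stretches increased with the number of mice that had a footprint. It was 3.23% of 17391 stretches seen in 1 mouse, 11.2% with 2 mice, 17.8% with 3, 23.3% with 4, 36.3% with 5, 50.5% with 6 and 52.5% of 59 stretches with 7 or more. The median masked share of these stretches increased too, from 21.0% with 1 mouse to 70.0% with 7 or more. Among stretches under 50% masked the UAG-dense share still went from 2.76% of 11439 with 1 mouse to 40.0% of 25 with 7 or more. The part of repeat content in the sharing between mice was not tested.

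**Figure D1:**
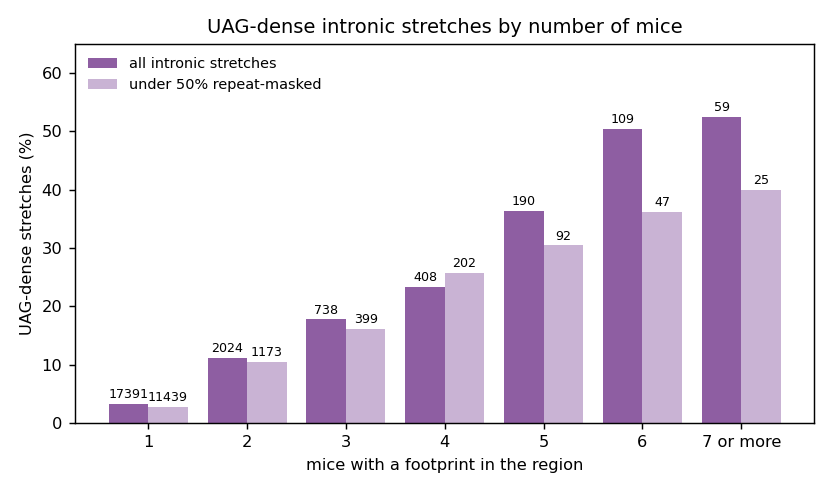
Share of intronic stretches of 50 nt or more that held at least 5 UAG per 100 nt (y axis, percent), by the number of mice with a footprint in the region (x axis), for all stretches (dark bars) and for those under 50% repeat-masked (pale bars), with the number of stretches above each bar. The share was 3.23% with 1 mouse and 52.5% with 7 or more.

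The UAG were centred on the shared stretch. In 25-nt bins around its centre, the 26 intronic kept regions held up to 10.15 UAG per 100 nt, and 1.23 at 462.5 nt upstream. The 20893 other intronic regions held 1.46 UAG per 100 nt at that distance and reached 1.95 next to the centre. The 78 coding kept regions showed the opposite shape, with a lowest value of 0.41 near the centre. Their bins away from the centre were not limited to coding sequence. Other coding regions were not profiled, so this shape cannot be called particular to the kept ones.

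**Figure D2:**
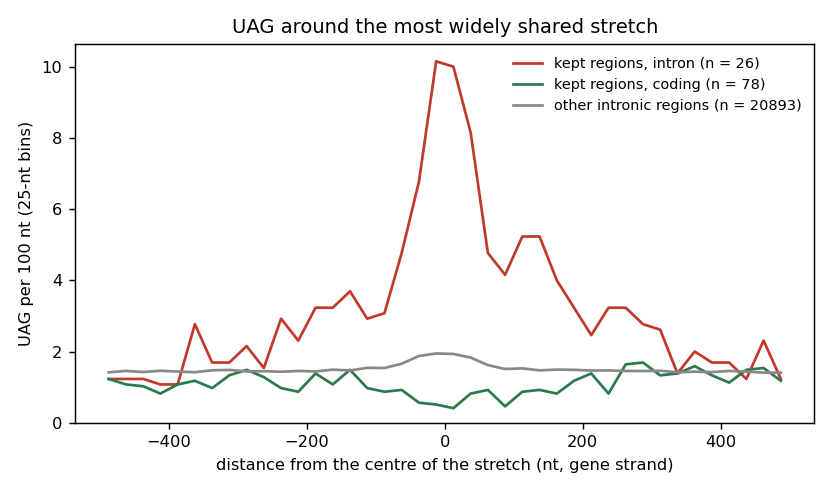
UAG per 100 nt on the gene strand (y axis, 25-nt bins) against the distance from the centre of the most widely shared stretch (x axis, nt), for intronic kept regions (red), coding kept regions (green) and all other intronic regions (grey). The red line peaks at 10.15 next to the centre, while the green line dips there.

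The same was seen mouse by mouse and was tested over mice. For each mouse, UAG per nt in its footprints was set against equally long windows placed 200 nt upstream and downstream, with 0.5 added to each count, as a log2 ratio. Inside the kept regions the log2 ratio was 0.71, 0.48 and 0.70 in mice Naive_1, Naive_2 and Naive_3, then 0.90, 0.84 and 0.48 in mild EAE mice EAE_3, EAE_4 and EAE_7, and 0.32, 0.61 and 1.42 in severe EAE mice EAE_1, EAE_5 and EAE_6. In the other footprints of the same mice it lay between -0.52 in EAE_1 and 0.28 in EAE_6. Each of the 9 mice had the higher value inside the kept regions. Mouse EAE_2 had only 19 footprints inside and was left out of all tests, which required 20. The mean difference was 0.84 ± 0.21 on the log2 scale (SD, n = 9; two-sided exact sign-flip permutation test over mice, p = 0.00391, which is the smallest that 9 mice can give, and 0.0117 after Benjamini-Hochberg adjustment over 6 measures). The mice share the kept regions, so that their values are not independent draws of sequence. The difference was 1.55 without EAE_1 and 2.03 without EAE_5, when only 71 and 28 regions met the rule, and it was positive whichever mouse was left out.

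AGGU, the other motif examined, behaved alike. Its log2 ratio inside was 0.58, 0.35 and 0.60 in the naïve mice, 0.51, 0.59 and 0.47 in the mild EAE mice and 0.38, 0.43 and 1.43 in the severe EAE mice EAE_1, EAE_5 and EAE_6. The difference from the footprints outside was 0.62 ± 0.17 (SD, n = 9; exact sign-flip permutation p = 0.00391, adjusted 0.0117), with all 9 mice on the same side. It was 1.24 without EAE_1, 0.98 without EAE_5 and 0.29 without EAE_6. UAGGU holds both motifs, and they therefore overlap in many of these sequences.

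The differences were next taken in introns and coding sequence apart. When only intronic footprints were used, a measure added after the sequences were seen, the UAG difference was 1.245 and the AGGU difference 1.14 on the log2 scale (n = 9, exact sign-flip permutation p = 0.00391 for each). When only coding footprints were used, the UAG difference was -0.02 (exact permutation p = 0.961) and the AGGU difference 0.13 (p = 0.0547). In intronic footprints inside the kept regions, UAG stood at 58.3, 60.1 and 72.3 per 1000 nt in the naïve mice, at 66.7, 56.6 and 49.9 in the mild EAE mice, and at 75.65, 59.8 and 88.7 in EAE_1, EAE_5 and EAE_6. Their flanks held 15.4 to 23.7 per 1000 nt. Intronic footprints elsewhere in the same mice held between 13.1 per 1000 nt in Naive_2 and 32.6 in EAE_3. The lowest value inside was above the highest value outside, and the 3 groups of mice overlapped.

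**Figure D3:**
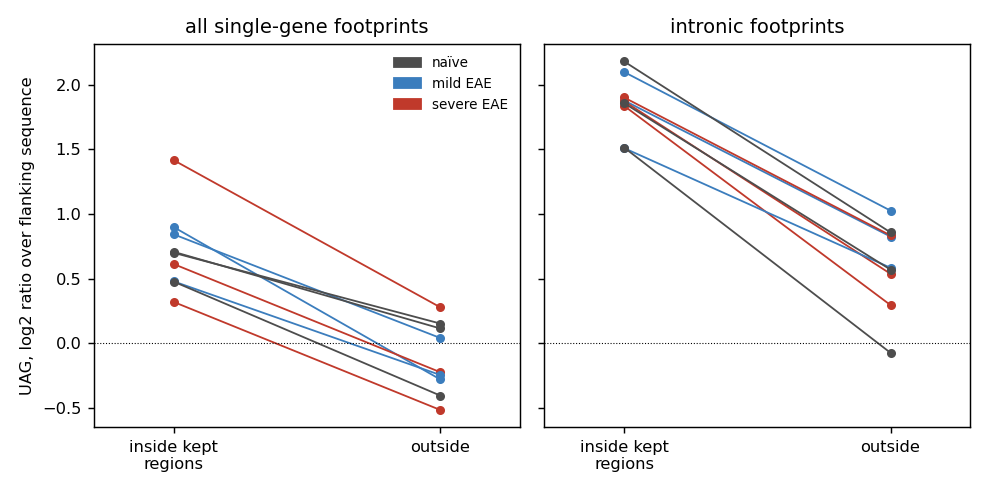
Log2 ratio of UAG density in footprints over flanking sequence (y axis), inside and outside the kept regions, with 1 line per mouse for the 9 mice with at least 20 footprints inside (colours give the group). All lines fall from inside to outside, for all single-gene footprints (left) and for intronic footprints (right).

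Which mice carried the UAG-dense regions was then examined. Footprints in the 18 regions were present for 18, 8 and 17 of them in Naive_1, Naive_2 and Naive_3, for 17, 18 and 18 in EAE_3, EAE_4 and EAE_7, and for 10, 0, 18 and 11 in EAE_1, EAE_2, EAE_5 and EAE_6. EAE_6 had 11 of the 18 and 56 of the 259 kept regions, and EAE_1 had 10 of the 18 and 215 of the 259. As EAE_5 had all 18 and EAE_2 had 0, the rule needed EAE_1 or EAE_6 in each of them. A low count in one therefore required a high count in the other, and the counts are descriptions. In all 18, a common stretch of 101 nt (Rab2b) to 277 nt (Nuak1) was covered by at least 2 mice of every group. A further 7 of the 18 genes were Arhgef10, Rab2b and Rpgrip1l together with Dlg2 and Dlgap1, which code for scaffold proteins of the excitatory synapse, Gphn, which codes for the scaffold of inhibitory synapses, and Cacna1a, which codes for the pore of a presynaptic calcium channel. In Cacna1a the footprints covered 122 nt in Naive_1 and 126 nt in Naive_3, 144, 128 and 209 nt in EAE_3, EAE_4 and EAE_7, and 128 and 111 nt in EAE_5 and EAE_6. In Camta1 they covered 498 and 493 nt in Naive_1 and Naive_3, 340, 373 and 200 nt in the mild EAE mice, and 398 and 321 nt in EAE_5 and EAE_6. For Camta1 both naïve mice with a footprint had longer coverage than any EAE mouse. For Cacna1a both naïve values lay below the 3 mild EAE values, while the severe EAE values overlapped both groups. Naive_2 had no footprint in either region, so each comparison rests on 2 naïve values. The 2 regions point in opposite directions, and how many of the 18 separate in this way was not counted.

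**Figure D4:**
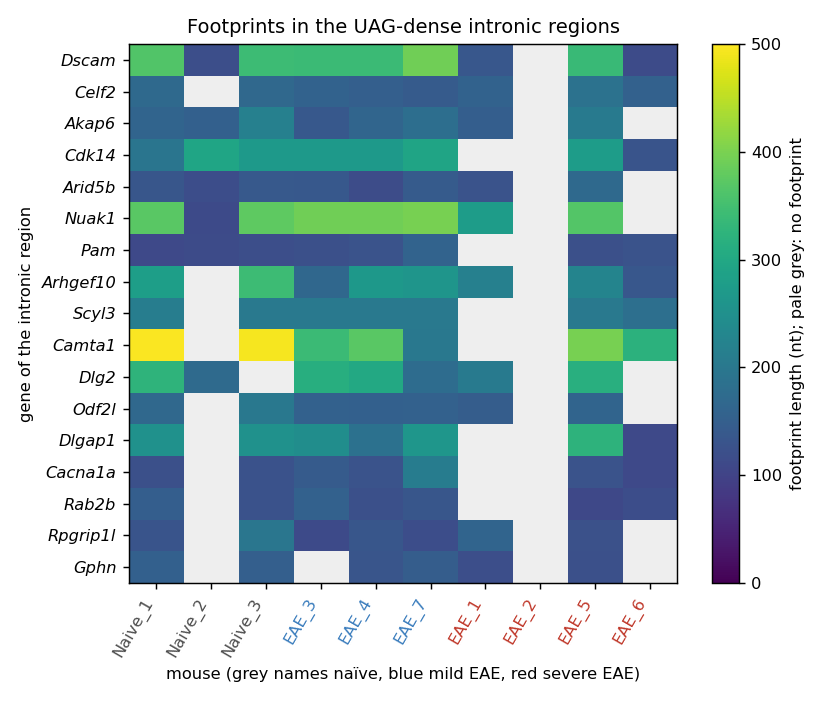
Footprint length in nt (colour, pale grey for no footprint) in 17 of the 18 UAG-dense intronic regions (y axis, by gene) and each mouse (x axis). EAE_2 had no footprint in any of them, and Naive_1, EAE_4, EAE_7 and EAE_5 had one in each.

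Npas3, which codes for a neuronal transcription factor, held 1 of the 2 regions with a footprint in all 10 mice (chr12:53270417-53270876, intron). The footprints covered 226, 76 and 226 nt in the naïve mice, 338, 247 and 161 nt in the mild EAE mice EAE_3, EAE_4 and EAE_7, and 84, 135, 424 and 224 nt in EAE_1, EAE_2, EAE_5 and EAE_6. Lengths overlapped between groups, and 215 nt were covered by at least 2 mice of each. The stretch shared by most mice was only 22 nt long, covered in 8 mice, and held 4 UAG. The 12 regions with a footprint in 9 or 10 mice comprised 3 in coding sequence (Lrp1, Mlf2 and Ahnak2), 3 in introns (Npas3, Dscam and 4930578G10Rik) and 6 outside annotated genes. Some of the 12 were near-identical copies. The 4930578G10Rik region was 99.5% repeat-masked and had no stretch common to 2 mice of each group. It belonged to a family of 4 near-identical regions, with chr4:42185556-42186537 and chr4:42682715-42683696, both outside genes.

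Coding sequence made up the largest class, with 163 of the 259 regions (62.9%), against 49.7% of all union regions. Introns held 37 (14.3%, against 28.2%), exons of noncoding transcripts 18, 3′ UTRs 14, 5′ UTRs 6, and 21 lay outside annotated genes. Regions shared by 2 groups, with fewer than 2 mice of the third, were alike or more coding in 2 of 3 sets. The coding share was 72.3% for naïve and mild EAE, 67.6% for mild and severe EAE and 58.7% for naïve and severe EAE. The intronic share was 15.3%, 5.79% and 13.8% in the same order. Over footprints of single mice, the coding share among footprints in genes was 65.3% ± 2.83 in naïve (SD, n = 3), 64.9% ± 4.18 in mild EAE (n = 3) and 62.8% ± 7.55 in severe EAE mice (n = 3). The difference from the footprints outside was 5.45 percentage points (n = 9, exact sign-flip permutation p = 0.125, adjusted 0.25), and it turned negative without any one of Naive_1, Naive_3, EAE_1 or EAE_5, with a lowest value of -6.49. It was larger and passed the threshold before adjustment without EAE_4 (8.54, exact permutation p = 0.0469, n = 8), over the 163 regions with a stretch common to 2 mice of each group (7.64, p = 0.043) and without near-identical regions (10.1, p = 0.0234). The intronic share inside minus outside was -5.42 percentage points (exact permutation p = 0.18, adjusted 0.27), and it turned positive without Naive_1, EAE_1 or EAE_5, with a highest value of 10.0 without EAE_5 (exact permutation p = 0.0312, n = 7), and was -9.05 without EAE_6 (p = 0.0234, n = 8). The GC content differed by -0.24 percentage points (exact permutation p = 0.699). It was -2.03 without EAE_1 (exact permutation p = 0.0312, n = 8), -2.001 without EAE_5 (p = 0.0469, n = 7) and -2.07 with at least 3 severe EAE mice (p = 0.0469, n = 8). With all 9 mice, none of these 3 differences was larger than the spread between mice. That spread followed the groups in part. The mean intronic share was 18.6% inside against 36.2% outside in naïve, 18.9% against 17.4% in mild EAE and 20.7% against 20.9% in severe EAE mice. The mean coding share outside was 51.9%, 70.3% and 54.5% in the same order, so that mild EAE mice went the other way for both shares.

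Lrp1, which codes for a large endocytic receptor, held 10 kept regions, more than any other gene. One of them (chr10:127546394-127546517, coding) was among the 10 regions with a footprint in 9 mice. Its footprints covered 93, 74 and 124 nt in the naïve mice, 123, 104 and 123 nt in EAE_3, EAE_4 and EAE_7, and 107, 85 and 123 nt in EAE_1, EAE_2 and EAE_5, and there was none in EAE_6. All 9 mice shared a stretch of 58 nt. Sptan1, which codes for the alpha chain of brain spectrin, held 9 kept regions, Dst, which codes for a linker between cytoskeletal filaments, 7, and Dync1h1, which codes for the dynein heavy chain, 5. All of these lay in coding sequence, and 8 of 10 in Lrp1, 8 of 9 in Sptan1, 5 of 7 in Dst and 5 of 5 in Dync1h1 had a stretch covered by at least 2 mice of each group. Ahnak2 held 3, including the other region with a footprint in all 10 mice (chr12:112783616-112785431), which was 1816 nt long and belonged to a family of 3 near-identical regions.

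For comparison with the introns, the longest coding stretches covered in 8 mice (Ptprs) and in 7 mice (Dst) are shown.
Ptprs, chr17:56418910-56419018, minus strand: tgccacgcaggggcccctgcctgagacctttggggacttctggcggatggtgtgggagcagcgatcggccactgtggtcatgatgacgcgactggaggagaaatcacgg
Dst, chr1:34211154-34211294, plus strand: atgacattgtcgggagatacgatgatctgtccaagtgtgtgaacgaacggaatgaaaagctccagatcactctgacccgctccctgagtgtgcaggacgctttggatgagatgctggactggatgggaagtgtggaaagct
Neither held a UAG, and the median over all coding stretches of the series was 0 UAG per 100 nt as well. Ptprs codes for a receptor tyrosine phosphatase of axons and synapses. Its region (chr17:56418910-56419085) was covered over 109, 127 and 155 nt in the naïve mice, 112, 143 and 141 nt in the mild EAE mice and 156 and 131 nt in EAE_1 and EAE_5, with overlap between all groups. In 101 of the 163 coding regions the most shared stretch began or ended within 2 nt of an exon end, and in 5 it was a whole exon. The share of footprints with such an end was 45.2% ± 5.75 inside (SD, n = 9) and differed by -2.85 percentage points from outside (exact sign-flip permutation p = 0.414). This difference changed sign with the choice of regions: it was 11.1 percentage points (exact permutation p = 0.0195) over the 163 regions with a stretch common to 2 mice of each group and -20.5 (p = 0.00781, n = 8) over the 28 regions found in at least 3 severe EAE mice. It was -15.2 without Naive_1, -9.82 without EAE_3, -16.2 without EAE_1 and -20.2 without EAE_5, each past the threshold before adjustment (exact permutation p = 0.0156, 0.00781, 0.0156 and 0.0156).

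Genes were next grouped by function, and a gene counted when a kept region overlapped its annotated span. Of 13965 genes with a footprint, 187 were overlapped by a kept region (1.34%). These genes had a median of 47 footprints over all mice, against 4 for all genes with a footprint, and 18.8% of the 462 genes with 50 or more footprints were overlapped. Spectrins, ankyrins and cytoskeletal linkers stood at 7 of 17 (Sptan1, Dst, Ank2, Sptbn1, Ank3, Plec and Macf1), and at 7 of 14 with 50 or more footprints. Neurofilament and microtubule genes stood at 5 of 26 (Map1a, Dpysl2, Map1b, Map2 and Gap43), and at 4 of 6 with 50 or more footprints. Motor proteins stood at 3 of 15 (Dync1h1, Myh9 and Kif1a), and at 3 of 11 with 50 or more footprints. These lists were chosen with earlier results known, and the counts are descriptions.

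Genes of RNA metabolism were counted in the same way, beside the 1.34% of all genes with a footprint. Among genes with 50 or more footprints the share was 18.8%. In that range SR proteins and core spliceosome genes stood at 2 of 3 and translation factors at 1 of 3. The hnRNP genes stood at 0 of 2, neuronal and glial splicing regulators at 0 of 2 and long noncoding RNAs at 2 of 5. Hnrnpk, whose protein binds C-rich RNA, was the only 1 of 25 hnRNP genes with a kept region (chr13:58400333-58400417, coding). Its footprints covered 65 and 67 nt in Naive_1 and Naive_2, 70, 66 and 68 nt in EAE_3, EAE_4 and EAE_7, and 64, 85 and 64 nt in EAE_1, EAE_5 and EAE_6, and all 8 shared 64 nt. SR proteins and core spliceosome genes stood at 3 of 29 (Srrm2, Snrnp70 and Son), neuronal and glial splicing regulators at 2 of 25 (Elavl3 and Celf2), translation factors at 3 of 19 (Eif4g1, Pabpc1 and Eif3a), and RNA-binding proteins linked to neurodegeneration at 0 of 14. Cytosolic ribosomal protein genes stood at 2 of 84 (Rps15 and Rplp2). The long noncoding RNAs stood at 2 of 16 (Kcnq1ot1 and Meg3), both imprinted.

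A footprint was present in 15 of 16 neuron markers, 16 of 16 astrocyte markers and 23 of 24 myelin and oligodendrocyte genes. For microglia and leukocyte markers it was 22 of 29. The share over all annotated genes was not counted. Kept regions overlapped 0 of 15 neuron markers with a footprint, 0 of 23 myelin and oligodendrocyte genes and 0 of 22 microglia and leukocyte markers. The share over all genes with a footprint was 1.34%, and a count of 0 in lists of this size is near it. Only 1 neuron marker, 3 myelin and oligodendrocyte genes and 0 microglia and leukocyte markers had 50 or more footprints. Astrocyte markers stood at 3 of 16, among them Ndrg2 and Slc4a4 with 1 kept region each, and at 2 of 3 with 50 or more footprints. With that many footprints, synaptic vesicle release genes stood at 0 of 5 and neurexins and adhesion genes at 1 of 13. Glycolysis enzymes stood at 0 of 2 and amyloid precursor and related genes at 1 of 3. All counts that follow are over genes with any footprint. Synaptic vesicle release genes stood at 2 of 23 (Vamp1 and Cplx1), neurexins and adhesion genes at 1 of 21 (Nfasc), chaperones at 2 of 13 (Dnajc6 and Hsp90aa1), glycolysis enzymes at 1 of 17 (Pfkp), amyloid precursor and related secreted genes at 2 of 11 (Aplp2 and Clu), CaMKII and calmodulin genes at 0 of 9 and mitochondrial genome genes at 0 of 5. Mapt, which codes for the microtubule protein tau, had 68 footprints and no kept region, Nrcam 37 and none, Pkm 33 and none, and Macf1 had 448 footprints and 1 kept region. Ermn, Fam107a, Hnrnpa2b1, Taf1, Spock3 and Abi2, which the study also names, had 4 to 25 footprints each and no kept region.

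Some kept regions were copies of one another. Of the 255 on chromosomes, 44 had a near-identical other member (at least 90% identity over at least 50% of the shorter one), in 13 families. Of the 259, 15 lay in one stretch of chromosome 2 (chr2:175083487-177470995), of which 2 were in introns of the zinc-finger genes Zfp970 and Zfp973 and the others outside annotated genes. Of the 21 regions outside genes, 16 belonged to such families and only 6 had a stretch common to 2 mice of each group. Near-identical regions are not independent of one another. Without the 44, the UAG difference was 0.95 and the AGGU difference 0.71 on the log2 scale (n = 9, exact sign-flip permutation p = 0.00391 for each).

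Joining overlapping footprints also produced chains. A stretch of more than 1 nt covered by at least 2 mice of every group at once was present in 163 of the 259 regions (median length 70 nt), among them 110 of 163 coding and 23 of 37 intronic regions. In the other 96, the groups met only through neighbouring footprints. Over the 163 regions the UAG difference was 1.25 (n = 9, exact sign-flip permutation p = 0.00391). The kept regions were 33 to 2829 nt long, with a median of 209 nt.

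The severe EAE criterion decided most of the membership. Mouse EAE_5 had 31870 footprints in all, EAE_1 2670, EAE_6 673 and EAE_2 209, while the naïve mice had 17119 to 17494 and the mild EAE mice 9751 to 24433. The number of reads behind them is not used here. The paper describes EAE_5 as an outlier among its severe EAE mice, with a binding profile similar to naïve and mild EAE mice. It adds that this mouse had been in remission shortly before the experiment ended. Of the kept regions, 258 had a footprint in EAE_5, 215 in EAE_1, 56 in EAE_6 and 19 in EAE_2, and EAE_1 together with EAE_5 and no other severe EAE mouse accounted for 187. Naive_1, Naive_2 and Naive_3 had a footprint in 229, 143 and 223, and EAE_3, EAE_4 and EAE_7 in 216, 209 and 226. The footprints inside made up 0.957% to 1.53% of all footprints in the naïve mice, 1.13% to 2.68% in the mild EAE mice, and 8.69%, 9.09%, 0.982% and 8.92% in EAE_1, EAE_2, EAE_5 and EAE_6. With EAE_5 left out, 28 regions met the rule, with EAE_1 left out 71, with Naive_1 left out 106, with Naive_3 left out 109 and with EAE_7 left out 162.

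**Figure D5:**
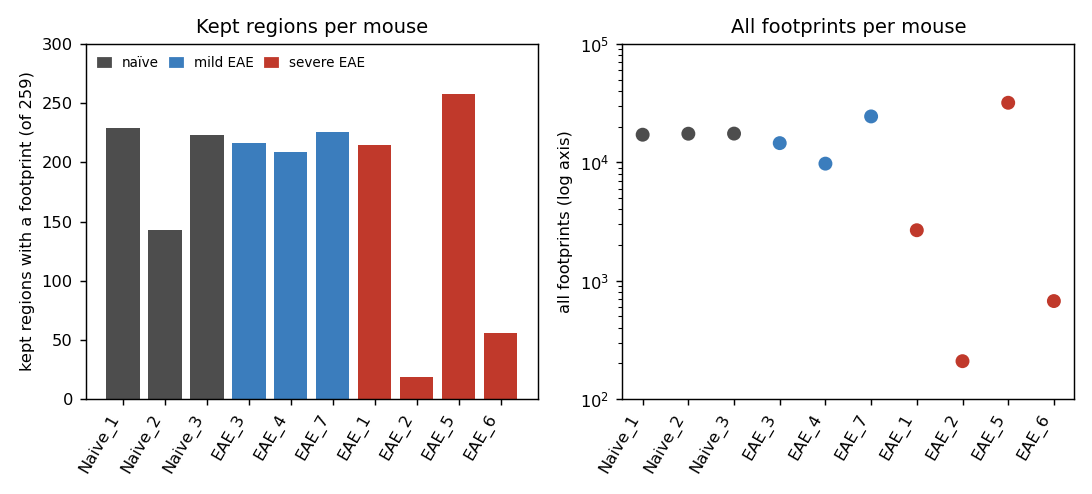
Left, number of the 259 kept regions with a footprint in each mouse (bars). Right, all footprints of each mouse (points, log axis); colours give the group. EAE_5 had a footprint in 258 kept regions and EAE_2 in 19.

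At the edge of the rule, 231 kept regions had exactly 2 severe EAE mice, and 1975 regions that met the naïve and mild EAE criteria had only 1. In 1935 of these 1975 the single severe EAE mouse was EAE_5. The coding share was 65.4% just inside and 72.5% just outside, and the intronic share 13.4% and 15.3%. Further regions fell short in another group, where 187 had 1 naïve mouse and 112 had 1 mild EAE mouse while the other criteria were met.

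Finally, the kept regions were compared between groups for measures the rule did not use. The rule did fix the places, because each kept region had footprints in at least 2 mice of every group. Motifs and class were therefore read over largely the same places in each group. Similar values between groups follow in part from this selection. The median footprint length inside was 139, 119 and 139 nt in the naïve mice, 134, 134 and 154 nt in the mild EAE mice, and 123.5, 159 and 117.5 nt in EAE_1, EAE_5 and EAE_6. The intronic share was 18.6% ± 3.24 in naïve, 18.9% ± 1.94 in mild EAE and 20.7% ± 9.58 in severe EAE mice (SD, n = 3 each). The UAG log2 ratio was 0.63 ± 0.13, 0.74 ± 0.23 and 0.78 ± 0.57, and the AGGU log2 ratio 0.51 ± 0.14, 0.52 ± 0.06 and 0.75 ± 0.59, in the same order. In each case the groups overlapped. Each measure was tested for EAE, mild EAE and severe EAE against naïve mice, which made 12 comparisons, and the lowest raw p was 0.5 and the lowest adjusted p 0.982 (two-sided exact permutation tests). With 3 mice against 3 such a test cannot go below 0.1, and with 6 against 3 not below 0.0119. For the motifs and the intronic share, the tests also cannot decide whether binding differed between groups. Regions that fell short in any group were left out of them. The UAG log2 ratio was 0.13 higher in EAE than in naïve mice (exact permutation p = 0.643) and the AGGU log2 ratio 0.13 higher (p = 0.774), and both differences turned negative without EAE_1.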

How the data were processed

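The authors crosslinked spinal cord with UV light, immunoprecipitated hnRNP A1 in the presence of RNase I and sequenced the RNA. Per the methods, reads were assembled into contigs, aligned to GRCm38 (minimap2, version 2.17 in the submitters' processing notes), and sites found in input or pooled IgG libraries were subtracted. The deposited lists give the position of each footprint with no strand, count or score, so that the depth behind a footprint is unknown. Input and IgG libraries were not analysed here.

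Union regions, exact permutation tests and motif counts were computed with Python 3.11.15, numpy 2.4.6 and pandas 2.3.3, and near-identical regions with blastn 2.17.0. Genes came from GENCODE and sequence from RefSeq's GRCm38 assembly. A footprint was classed by its midpoint, and UAG and AGGU were counted on the gene strand in footprints of a single gene. The code was tested on simulated footprints. The members, gene lists and tests were chosen with earlier results of these data known. Named genes were those of regions found in 9 or 10 mice, the 8 genes with most kept regions, up to 4 per list and genes the study names; some of them are not reported here. Sequences were taken by the number of mice and then length, leaving out UTRs and chromosome 18. Examples poor in UAG or with little repeat masking were picked after they were seen. Mice are the replicates, 1 library each, and p-values measure only the spread between these mice. Alternatives were other length limits, joining distances, region criteria, flanks and gene sets, and leaving out each mouse.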

Additional observations from a re-analysis of the deposited data

Results flagged for a closer look

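Among the 4 severe EAE mice, EAE_5 lay far from the others in the share of its footprints that fell in the kept regions, 0.982% (0.98211) against 8.69% to 9.09%. It also had the most footprints, 31870 against 209 to 2670. The paper likewise singles out EAE_5 as the severe EAE mouse whose binding profile resembled that of naïve and mild EAE mice. The kept regions were chosen from the footprints of these same mice, and EAE_5 had one in 258 of the 259. Its share therefore depends on the rule and on its number of footprints. The flag is a description and not a test.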

How the results depend on the processing

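The UAG and AGGU differences between footprints inside and outside the kept regions stayed positive and past the threshold of the exact permutation test under every alternative except coding footprints alone, where they were -0.0208 and 0.13. The remaining changes concern shares, lengths and counts. The rule kept 28 regions with at least 3 severe EAE mice and 163 with a stretch shared by 2 mice of each group. With 3 severe EAE mice, inside minus outside was 6.58 percentage points for the intronic share, -3.60 for the coding share, -20.5 for exon-boundary ends and -2.07 for GC content, and the intronic share inside was -5.78, -5.59 and -6.06 points for EAE, mild EAE and severe EAE minus naïve. With the shared stretch these were 7.64 for coding, 11.1 for exon-boundary ends and 0.0876 for GC, with -0.0018 (log2) for footprint length in severe EAE minus naïve. Joining footprints within 50 nt gave -8.29 for exon-boundary ends, 0.0697 for GC and -0.24 for the intronic share in mild EAE minus naïve. Footprints of at least 30 nt gave -0.0145 and of at most 1000 nt -0.0139 (log2) for length in severe EAE minus naïve, and the latter 0.0602 for GC. Coding footprints alone gave a UAG ratio of -0.0311 for EAE and -0.255 for severe EAE minus naïve. Leaving out near-identical regions, chosen after seeing the data like the intronic motif measure, gave 10.1 for coding, 4.51 for exon-boundary ends and 1.03 for GC.

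Leaving out each mouse in turn gave 28 to 253 kept regions. Inside minus outside ranged from 0.57 to 2.03 for UAG, 0.29 to 1.24 for AGGU, -9.05 to 10.0 for the intronic share, -6.49 to 8.54 for the coding share, -20.2 to -1.74 for exon-boundary ends and -2.03 to 0.232 for GC. For EAE, mild EAE and severe EAE minus naïve in that order, UAG ranged from -0.0499 to 0.24, -0.10 to 0.39 and -0.24 to 0.21, AGGU from -0.0425 to 0.16, -0.15 to 0.0924 and -0.0591 to 0.35, length from -0.0217 to 0.20, 0.0028 to 0.25 and -0.27 to 0.13 (log2), and the intronic share from -5.85 to 3.21, -5.98 to 1.78 and -5.45 to 4.76. The cause was not tested for any of these changes. No paired analysis was possible because only naïve and severe EAE mice share numbers 1 and 2, EAE_2 had 19 footprints inside, below the minimum of 20, and naïve and mild EAE mice share number 3 alone. EAE_2 and EAE_6 had the fewest footprints, 209 and 673, and the reads behind them were not used here.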
